A study of Mus musculus with 12 samples.

Results

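The mitochondrial ribosomal protein genes were examined in RNA recovered with 3 m6A reader proteins from cultured mouse neurons. The members were the protein-coding genes whose symbol begins with Mrpl or Mrps among the genes that the deposited YTHDF1 table names, and they were joined by Ensembl identifier to the table of read counts. There were 78 of them, 49 named Mrpl and 29 named Mrps, of 55573 genes in the count table. All 78 passed the filter on low counts and were tested with 16820 genes in all, so no member is missing from the counts below. Because the deposited table that supplied the names already left out genes with low counts, any Mrpl or Mrps gene outside it was not analysed here.

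RNA immunoprecipitation and sequencing (RIP-seq) had been done with hippocampal neurons of newborn C57BL/6 mice that were cultured for 14 days. Antibodies captured endogenous YTHDF1, YTHDF2 or YTHDF3 together with its RNA. Total RNA of the same lysates (Input) served as the reference, and each of the 4 groups had 3 libraries. All groups came from unedited, untreated cells of a single strain, from pooled pups of both sexes. By the methods, each replicate used a lysate that was shared between its Input and its 3 RIPs. The cultures were given an agent against dividing glia, which does not make them pure neurons. No library from a control antibody was analysed here, so each comparison is between a RIP and total RNA.

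The mitochondrial ribosome, or mitoribosome, makes the few proteins that the mitochondrial genome encodes, all of them subunits of the respiratory chain or of ATP synthase. Its RNAs come from mitochondrial DNA, whereas its proteins are encoded in the nucleus, translated in the cytosol and imported into the organelle. Some of these proteins descend from bacterial ribosomal proteins, and others were added after the bacterial ancestor of mitochondria entered the cell. The YTHDF proteins reside in the cytoplasm and recognise N6-methyladenosine (m6A), a methylated base that occurs in many mRNAs, often within the sequence GGACT.

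Depth differed between libraries, with total counts from 6020072 to 38909592 and the lowest total in YTHDF2 RIP replicate 2. The 12 libraries were checked for identity, and 0 pairs held identical values. Levels are given as normalised CPM, which are counts per 1000000 of a library size that was scaled by TMM, a normalisation between libraries. All 9 neuronal markers were tested, and their summed level ranged from 3247 to 4888 normalised CPM in Input. It ranged from 4505 to 7423 with YTHDF1, from 2004 to 3072 with YTHDF2 and from 3198 to 6312 with YTHDF3. The YTHDF2 range thus lay wholly below Input, and the others overlapped it. All 6 astrocyte markers were also present, and their summed level in Input ranged from 292 to 2648 CPM, which overlapped the ranges in the YTHDF1 RIP (303 to 1192 CPM), the YTHDF2 RIP (659 to 1315 CPM) and the YTHDF3 RIP (196 to 1487 CPM). Of 7 oligodendrocyte lineage markers 5 were tested, with summed levels of 23.9 to 172 CPM in Input, 192 to 517 CPM with YTHDF1, 271 to 432 CPM with YTHDF2 and 25.6 to 319 CPM with YTHDF3. The YTHDF1 and YTHDF2 ranges thus lay above the Input range. Of 6 microglial markers 1 was tested, with at most 3.61 CPM. No marker was at 0 counts throughout a group. By the methods, Input and RIPs came from the same lysates, so these ranges describe RNA recovered and do not compare cell numbers between groups. Between replicates of bulk samples, fewer cells of a type and less RNA per cell cannot be told apart. The part of other cell types in the results below was not tested.

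In Input, the members were expressed at moderate levels that spanned a more than 20-fold range. Per kilobase of exonic length, the median member had 5.87 normalised CPM, against 4.07 for all protein-coding genes tested, and the members ran from 1.20 to 27.7. Mrps21, a small-subunit protein, was highest with 27.7 ± 3.88 CPM per kilobase (SD, n = 3), followed by Mrpl12, the stalk protein of the large subunit, with 26.5 ± 0.981. These neighbours in the order did not differ beyond their SDs, whereas Mrpl12 and the next gene did. Mrps6 followed with 22.5 ± 3.05 and Mrpl52 with 19.7 ± 2.20 CPM per kilobase. The lowest levels per kilobase were those of Mrpl33 (1.20 ± 0.273), Mrps35 (1.66 ± 0.195), Mrpl13 (1.71 ± 0.343) and Mrpl47 (2.03 ± 0.292). Only 4 steps in the whole order were larger than the SDs of both neighbours. Exonic length here joins all annotated transcripts of a gene, and for Mrpl33 it was 7326 bases against 478 for its principal mRNA, so levels per kilobase of such genes are low on this scale.

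Transcripts of the mitochondrial ribosomal protein genes were lower in all 3 RIPs than in Input. They took 0.126% ± 0.00613 of all counts in Input (SD, n = 3), 0.0404% ± 0.00488 with YTHDF1, 0.0744% ± 0.0066 with YTHDF2 and 0.0653% ± 0.00265 with YTHDF3. Their summed level was 1262 ± 31.9 normalised CPM in Input, against 535 ± 76.3 with YTHDF1, 709 ± 24.1 with YTHDF2 and 522 ± 48.9 with YTHDF3. No RIP library overlapped the Input libraries in this sum, which was 1238 or more in every Input library and 733 or less in every RIP library. The shares use total counts and the CPM use scaled library sizes, and the order of YTHDF1 and YTHDF3 differs between these measures. The log2 ratio of the median member to its mean Input level was between -1.62 and -1.20 in the YTHDF1 libraries, between -1.03 and -0.95 in the YTHDF2 libraries and between -1.48 and -1.18 in the YTHDF3 libraries. YTHDF1 RIP replicate 2 was the YTHDF1 library nearest to Input and YTHDF1 RIP replicate 3 the farthest.

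No member was called enriched with any of the 3 proteins, and most were called depleted. A gene was called when it differed from Input by 0.32 or more on the log2 scale with an adjusted p of 0.05 or less in edgeR. In the YTHDF1 RIP 72 of 78 members (92.3%) were depleted, against 26.1% of all genes tested, and 0 were enriched, against 27.5% of all genes. In the YTHDF3 RIP 69 members were depleted (88.5%, against 23.2% of all genes) and 0 enriched (against 16.7%). In the YTHDF2 RIP 56 members were depleted (71.8%, against 19.3%) and 0 enriched (against 16.1%). At an unadjusted p under 0.05, in either direction, the counts were 72, 63 and 72 for YTHDF1, YTHDF2 and YTHDF3. The share of all genes at that unadjusted limit was not counted. Under DESeq2 and 4 other alternatives 1 member, Mrps5, was called enriched in the YTHDF2 RIP.

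The size of the difference varied among members. The median log2 fold change was -1.49 with YTHDF1, -1.03 with YTHDF2 and -1.37 with YTHDF3, where all genes tested had medians of 0.02, 0.02 and 0.05 and protein-coding genes medians of 0.12, 0.08 and 0.14. Of the protein-coding genes tested, 9.41%, 13.0% and 10.6% lay below these member medians. The middle part of the members, between the lower and the upper quartile, ran from -2.01 to -0.94 in the YTHDF1 RIP, from -1.45 to -0.60 in the YTHDF2 RIP and from -1.92 to -0.96 in the YTHDF3 RIP. Every RIP library lay below every Input library for 73 members in the YTHDF1 RIP (28.3% of all genes did), for 66 members in the YTHDF2 RIP (27.7%) and for 77 members in the YTHDF3 RIP (29.3%). The 3 comparisons share the Input libraries, so they are not independent of each other.

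**Figure D1:**
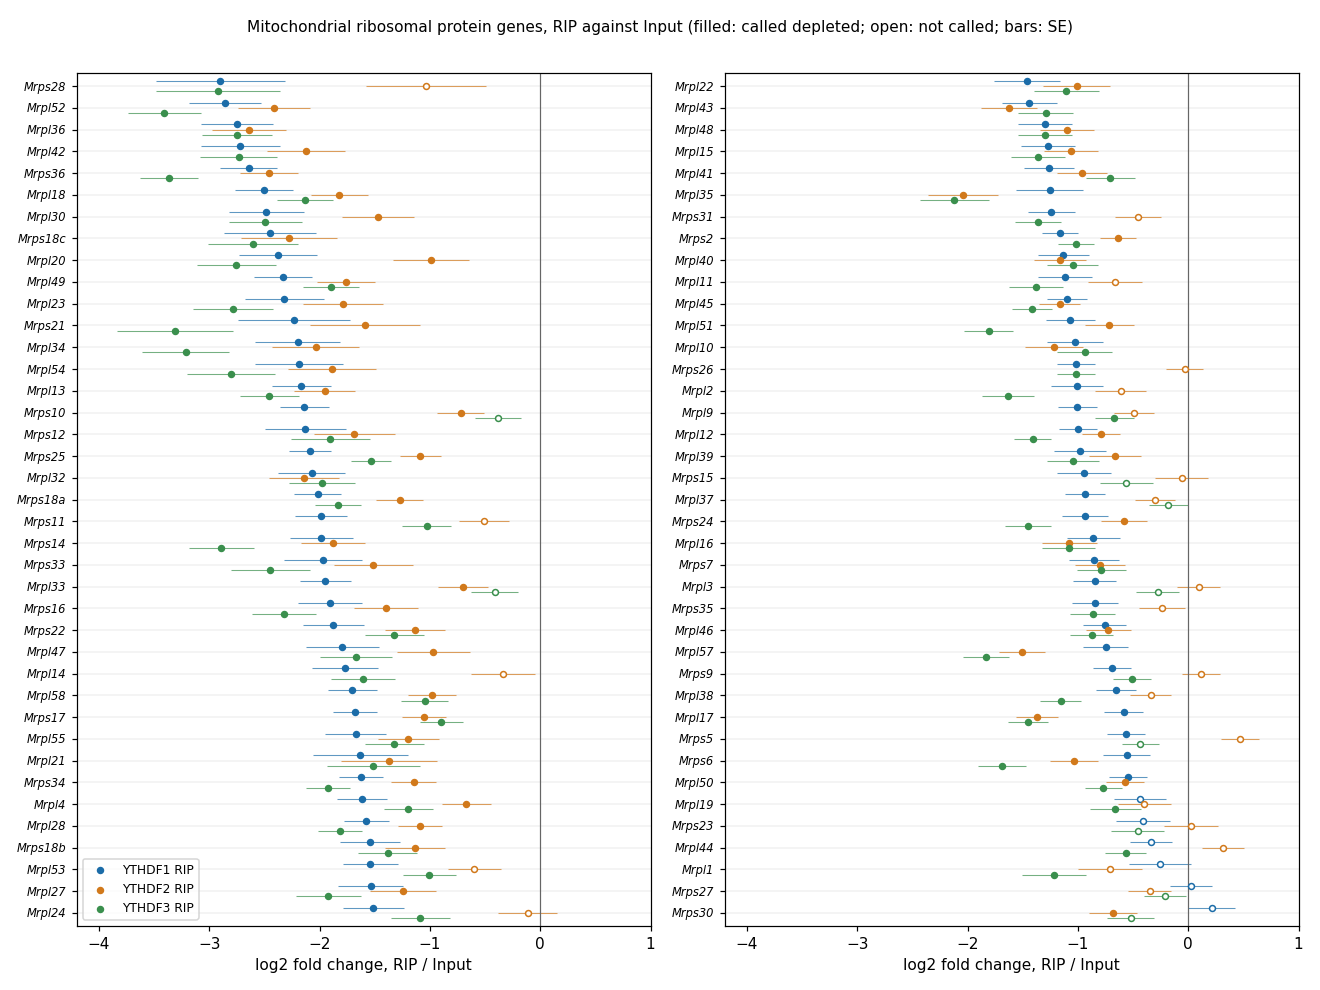
Log2 fold change (x axis) of the 78 mitochondrial ribosomal protein genes (y axis, ordered by the YTHDF1 value) in the YTHDF1, YTHDF2 and YTHDF3 RIPs against Input, with bars for the SE of the fit over 12 libraries. Filled points are called depleted (72, 56 and 69 members) and open points are not called, and nearly all points lie left of 0.

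**Figure D2:**
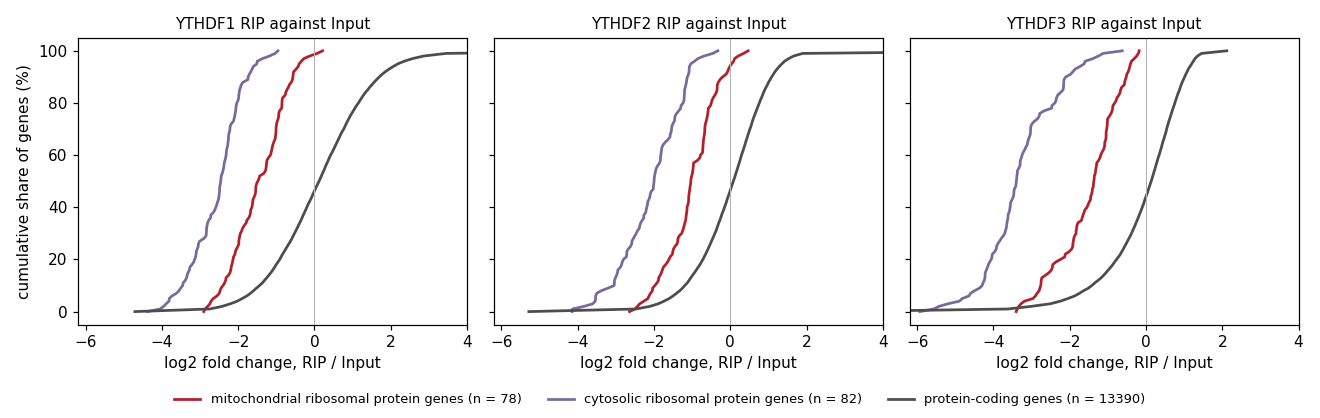
Cumulative share of genes (y axis, percent) by log2 fold change against Input (x axis, which ends at 4) for the 78 mitochondrial ribosomal protein genes, 82 cytosolic ribosomal protein genes and 13390 protein-coding genes tested. The mitochondrial curve lies left of the protein-coding curve in all 3 panels, with medians of -1.49, -1.03 and -1.37, and the cytosolic curve lies farther left.

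By joint calls, 53 members (67.9%) were depleted in all 3 RIPs, against 14.0% of all genes tested. A further 13 were depleted in the YTHDF1 and YTHDF3 RIPs and not called in the YTHDF2 RIP, among them Mrps11, Mrps26, Mrps28, Mrpl14 and Mrpl24. Mrps10 and Mrpl33 were depleted in the YTHDF1 and YTHDF2 RIPs and not called in the YTHDF3 RIP. The members depleted in a single RIP were Mrpl3, Mrpl37, Mrps5 and Mrps15 for YTHDF1, Mrpl1, Mrpl19 and Mrpl44 for YTHDF3, and Mrps30 for YTHDF2. Only Mrps23 and Mrps27 were depleted in no RIP. These classes rest on thresholds, and a call in a single RIP does not show that the RIPs differ, which was tested separately.

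The members were next grouped by subunit and descent, and depletion ran through every group. Of 51 genes for large-subunit proteins, 47, 39 and 47 were depleted with YTHDF1, YTHDF2 and YTHDF3, with medians of -1.44, -1.06 and -1.38. Of 26 genes for small-subunit proteins, 24, 16 and 21 were depleted, with medians of -1.58, -0.92 and -1.34. Among the 29 large-subunit proteins with a bacterial homologue the medians were -1.54, -1.06 and -1.51, and among the 22 that are specific to mitochondria -1.20, -1.04 and -1.23. For the small subunit, the 16 conserved members had medians of -1.79, -0.92 and -1.24 and the 10 mitochondrion-specific members -1.39, -0.77 and -1.34. In all 4 groups the median was nearest to 0 in the YTHDF2 RIP. Differences between these groups were not tested.

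The lowest member in the YTHDF3 RIP and the next to lowest in the YTHDF1 RIP was Mrpl52, a mitochondrion-specific protein of the large subunit (chr14:54426909-54429756, plus strand, GRCm38). Its Input libraries had 19.2, 24.0 and 22.5 normalised CPM, against 2.31, 4.77 and 1.98 with YTHDF1, 3.19, 4.49 and 4.60 with YTHDF2 and 2.33, 1.63 and 2.22 with YTHDF3. Every RIP library was below every Input library by a wide margin. The log2 fold changes were -2.86 ± 0.33 (SE, adjusted p = 4.4e-05), -2.42 ± 0.33 (adjusted p = 0.000449) and -3.41 ± 0.33 (adjusted p = 4.05e-05). Its principal mRNA, of 418 nucleotides, was the shortest of all members.

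Mrps28, a small-subunit protein related to bacterial S1, had the lowest log2 fold change of all members in the YTHDF1 RIP (chr3:8802146-8923918, minus strand). It was a low gene, with 4.27, 3.81 and 4.18 normalised CPM in Input, 0.116, 0.782 and 0.613 with YTHDF1, 1.59, 1.64 and 2.69 with YTHDF2 and 0.893, 0.555 and 0.165 with YTHDF3. All RIP libraries were below all Input libraries, and the YTHDF2 libraries were above those of the other RIPs. The counts behind these values were small, from 1 in YTHDF1 RIP replicate 1 to 56 in Input replicate 1. The log2 fold changes were -2.90 ± 0.58 (adjusted p = 0.00156), -1.03 ± 0.54 (adjusted p = 0.161, not called) and -2.92 ± 0.56 (adjusted p = 0.00177).

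Next in the YTHDF1 order were Mrpl36, Mrpl42, Mrps36 and Mrpl18, with log2 fold changes between -2.75 and -2.50, all depleted in all 3 RIPs. Mrpl36, the homologue of a very small bacterial large-subunit protein, was the lowest member in the YTHDF2 RIP (-2.64 ± 0.34, adjusted p = 0.000373). Mrps36 is known as a subunit of the 2-oxoglutarate dehydrogenase complex rather than of the mitoribosome, and it was placed in none of the 4 groups above. It had 12.6, 12.3 and 14.6 normalised CPM in Input, 1.85, 2.85 and 1.62 with YTHDF1, 2.39, 2.54 and 2.24 with YTHDF2 and 1.44, 1.07 and 1.29 with YTHDF3, with log2 fold changes of -2.64, -2.46 and -3.37. It was among the lowest members in every RIP. Its counts can include reads from processed pseudogenes, since reads with several alignments were counted, and the same holds for Mrpl23, Mrpl27 and Mrpl48, which also have named pseudogenes.

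At the other end of the YTHDF1 order were Mrps30 and Mrps27, the only members above 0 there. Mrps30, a mitochondrion-specific protein that sits in the large subunit despite its name (chr13:118378381-118387252, minus strand), had 15.2, 12.8 and 14.0 normalised CPM in Input and 11.6, 19.2 and 17.8 in the YTHDF1 RIP, and the groups overlapped. With YTHDF2 it had 7.18, 9.72 and 9.31 and with YTHDF3 10.7, 8.89 and 9.69, all below Input. The log2 fold changes were 0.21 ± 0.21 (adjusted p = 0.42), -0.68 ± 0.22 (adjusted p = 0.0308) and -0.52 ± 0.21 (adjusted p = 0.0702). The sign of the YTHDF1 value was negative when TMM was computed over protein-coding genes (-0.0389), with library size alone (-0.211) and with the length trend removed (-0.304).

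Mrps27, a small-subunit protein of the pentatricopeptide repeat family, stayed closest to Input across the RIPs (chr13:99344786-99415562, plus strand). Its libraries had 13.3, 10.5 and 11.4 normalised CPM in Input, 12.4, 11.1 and 12.4 with YTHDF1, 10.2, 7.78 and 9.54 with YTHDF2 and 12.2, 9.26 and 8.96 with YTHDF3. The YTHDF1 and YTHDF3 libraries overlapped Input, and the YTHDF2 libraries lay just below it. The log2 fold changes of 0.03 ± 0.19, -0.35 ± 0.19 and -0.21 ± 0.19 gave adjusted p-values of 0.915, 0.18 and 0.41. Mrps23, the other member called in no RIP, had log2 fold changes of -0.41, 0.02 and -0.46 with SEs of 0.24.

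Mrps5, the homologue of the bacterial accuracy protein S5, was the highest member in the YTHDF2 RIP (chr2:127587222-127606829, plus strand). It had 34.8, 36.2 and 30.7 normalised CPM in Input, 50.8, 46.5 and 43.4 with YTHDF2, 19.3, 27.9 and 21.4 with YTHDF1 and 26.2, 23.2 and 25.8 with YTHDF3. Its YTHDF2 libraries were all above Input and its other RIP libraries all below. The log2 fold change with YTHDF2 was 0.47 ± 0.17 with an adjusted p of 0.0507, and with YTHDF1 it was -0.57 ± 0.17 (adjusted p = 0.0149). Mrpl44, a large-subunit protein with an RNase III-like fold, was the only other member with every YTHDF2 library above every Input library, at 9.17, 9.42 and 9.43 against 7.39, 7.33 and 7.83 normalised CPM (log2 fold change 0.31 ± 0.19, adjusted p = 0.219). Mrps9, Mrpl3 and Mrps23 were also above 0 there, between 0.02 and 0.12, and were not called.

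**Figure D3:**
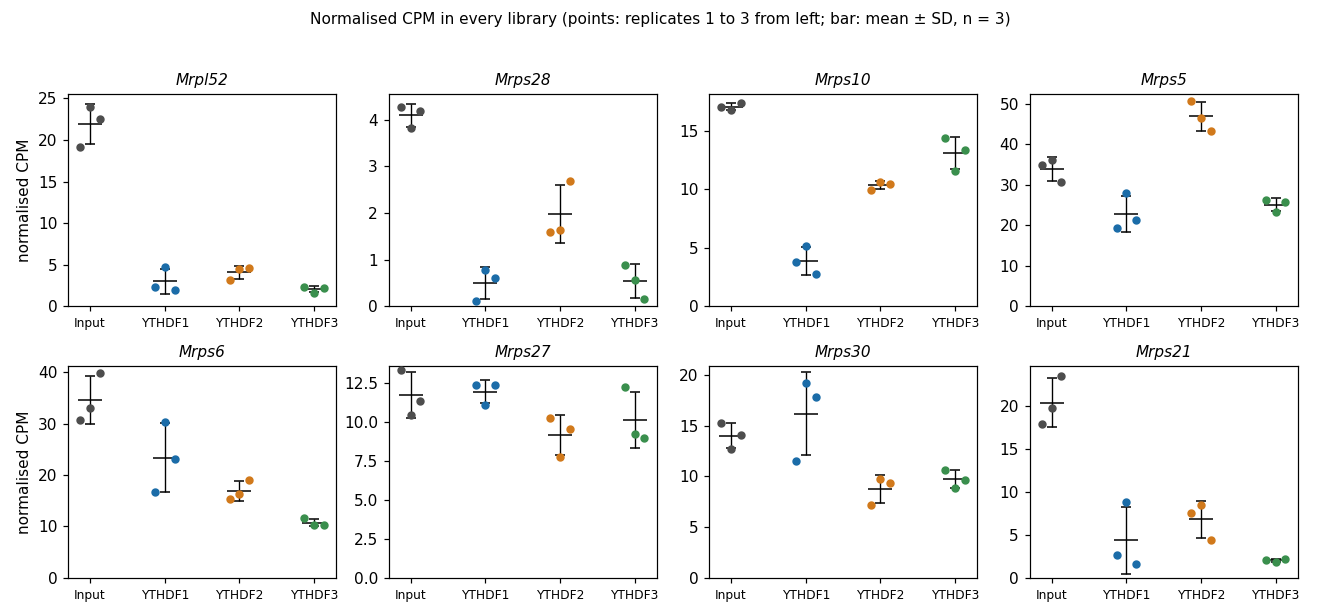
Normalised CPM (y axis, from 0, with its own scale for each gene) of 8 named members in every library of Input and of the YTHDF1, YTHDF2 and YTHDF3 RIPs (x axis). Points are the 3 replicates and bars the mean ± SD; Mrpl52 and Mrps28 are low in the RIPs, Mrps27 overlaps Input in the YTHDF1 and YTHDF3 RIPs, and Mrps5 is above Input in the YTHDF2 RIP only.

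The 3 RIPs were then compared with each other, the question being whether the proteins differ in the RNAs they recover. For 36 of 78 members (46.2%) a single test across the RIPs found a difference, against 32.8% of all genes tested. Among these 36, the YTHDF2 RIP had the highest mean CPM for 28, whereas the lowest mean was in the YTHDF1 RIP for 18, in the YTHDF3 RIP for 17 and in the YTHDF2 RIP for 1. This split was not made over all genes that differed, so it is not known to be particular to the members. Pairwise calls, which needed a 2-fold difference and an adjusted p of 0.05 or less, were fewer. Between YTHDF1 and YTHDF2, 9 members were lower with YTHDF1 (11.5%, against 6.13% of all genes) and 0 higher (against 11.4%), with a member median of -0.45 and a median over all genes of 0.03. Between YTHDF1 and YTHDF3, 2 members were lower (2.56%, against 3.62%) and 2 higher (against 11.0%), with a median of 0.02 and a median over all genes of 0.19. Between YTHDF2 and YTHDF3, 4 members were higher with YTHDF2 (5.13%, against 3.97%) and 0 lower (against 1.17%), with a median of 0.46 and a median over all genes of 0.07. At an unadjusted p under 0.05 and with no fold limit, 35, 24 and 35 members differed in these 3 comparisons. The share of all genes at that limit was not counted, so these counts do not set the members apart. With the replicate number as a block in a fit of the 2 groups alone, 12 members were lower with YTHDF1 than with YTHDF2, 1 was lower and 0 higher with YTHDF1 than with YTHDF3, and 0 were higher with YTHDF2 than with YTHDF3. Such a fit has few degrees of freedom, and the block in the fit of all 12 libraries gave 8 lower, 2 lower and 2 higher, and 4 higher. Shares of all genes are not given for these counts with the block. The block follows the stated pairing by number, which the correlations given under processing do not show between YTHDF3 and the other RIPs.

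Mrps10, the small-subunit homologue of bacterial S10 (chr17:47368887-47381417, plus strand), had the smallest adjusted p-values of all members between RIPs. It had 17.0, 16.8 and 17.4 normalised CPM in Input, 3.82, 5.12 and 2.74 with YTHDF1, 9.97, 10.6 and 10.4 with YTHDF2 and 14.4, 11.6 and 13.3 with YTHDF3. The groups did not overlap, with YTHDF1 lowest and YTHDF3 nearest to Input. YTHDF1 was lower than YTHDF2 by a log2 fold change of -1.42 ± 0.22 (adjusted p = 0.000776) and lower than YTHDF3 by -1.76 ± 0.22 (adjusted p = 0.00033). Both calls stood under all 19 alternatives tried.

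Mrpl33, the homologue of bacterial L33 in the large subunit (chr5:31596935-31664384, plus strand), had the same order of groups. It had 7.31, 7.92 and 11.0 normalised CPM in Input, 2.31, 2.56 and 1.95 with YTHDF1, 5.45, 4.93 and 5.72 with YTHDF2 and 7.14, 5.96 and 6.58 with YTHDF3. YTHDF1 was lower than YTHDF2 by -1.25 ± 0.23 (adjusted p = 0.00221) and lower than YTHDF3 by -1.53 ± 0.23 (adjusted p = 0.000859). The first call was lost when the trend with mRNA length was removed and the second in the fit of the 2 groups with the replicate block (adjusted p = 0.0611). The joined exons of Mrps10 and Mrpl33 spanned 8079 and 7326 bases, against principal mRNAs of 1018 and 478 nucleotides, a gap that members not called between RIPs also had, such as Mrpl13 (7936 against 1223). The counts do not show which of the annotated transcripts the reads came from.

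A further pair of conserved members, Mrps11 of the small and Mrpl24 of the large subunit, were lower with YTHDF1 than with YTHDF2 under all 19 alternatives. Mrps11 had 3.35, 2.70 and 2.24 normalised CPM in the YTHDF1 RIP and 6.51, 9.87 and 6.51 in the YTHDF2 RIP (log2 fold change -1.48 ± 0.24, adjusted p = 0.000925). Mrpl24 had 4.16, 6.47 and 3.10 against 13.3, 13.6 and 9.20 (log2 fold change -1.40 ± 0.28, adjusted p = 0.00325), and its YTHDF2 level overlapped Input. Mrps5 (-1.03), Mrpl14 (-1.43) and Mrpl20 (-1.39) were lower with YTHDF1 under 16 of the 18 or 19 alternatives that gave a value. Mrps5 lost the call without YTHDF1 RIP replicate 1 or YTHDF2 RIP replicate 1, and Mrpl20 without YTHDF2 RIP replicate 2. Mrpl14 and Mrpl20 lost it when the trend with mRNA length was removed, with or without the block. The log2 fold changes stayed at or below -0.93 for Mrps5, -0.94 for Mrpl20 and -0.99 for Mrpl14 under all alternatives. Mrpl30 (-1.01) and Mrps28 (-1.87) were lower in the fit reported here and lost the call under 11 alternatives each, including 5 of the 6 fits without a library, with values from -1.61 to -0.694 for Mrpl30 and from -2.37 to -1.45 for Mrps28.

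The members higher with YTHDF1 than with YTHDF3 were Mrps6 and Mrpl57. Mrps6, the homologue of bacterial S6, had 16.8, 30.3 and 23.2 normalised CPM in the YTHDF1 RIP and 11.6, 10.3 and 10.4 in the YTHDF3 RIP, against 30.8, 33.1 and 39.8 in Input (log2 fold change between the RIPs 1.13 ± 0.22, adjusted p = 0.00362). Mrpl57, a mitochondrion-specific large-subunit protein, had 9.37, 12.4 and 8.69 against 5.67, 4.04 and 4.66 (log2 fold change 1.08 ± 0.21, adjusted p = 0.00341). Neither call stood with library size alone, where the values were 0.376 and 0.356, or without YTHDF1 RIP replicate 2, where they were 0.778 and 0.792. The Mrps6 call was also lost without YTHDF1 RIP replicate 3 (0.98), and the Mrpl57 call without YTHDF3 RIP replicate 2 (0.98). Of the exonic length of Mrps6, 19.9% also lies in exons of another annotated gene on the same strand, and such reads were counted for both.

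The members higher with YTHDF2 than with YTHDF3 were Mrpl20 (1.76 ± 0.35, adjusted p = 0.0157), Mrpl14 (1.26 ± 0.29, adjusted p = 0.0266), Mrpl51 (1.10 ± 0.22, adjusted p = 0.0168) and Mrpl2 (1.02 ± 0.24, adjusted p = 0.0259). All are large-subunit proteins, and Mrpl2, Mrpl14 and Mrpl20 have bacterial homologues. Mrpl20, which in bacteria acts early in assembly of the large subunit, had 6.91, 16.7 and 8.98 normalised CPM with YTHDF2 against 4.15, 2.37 and 3.04 with YTHDF3, and YTHDF2 RIP replicate 2 stood above the other libraries of its group. Without that library the Mrpl20 value was 1.32 and the call was lost, as it was without YTHDF3 RIP replicate 2 (1.59) or replicate 3 (1.74). Mrpl14 kept its call in 1 and Mrpl51 in 2 of the 6 fits without a library, with values over all alternatives from 0.789 to 1.43 and from 0.847 to 1.23. Mrpl2 was called in 2 of 19 alternatives and in 0 of the 6 fits without a library (0.751 to 1.10 over all alternatives). Mrps21 had a similar value between YTHDF2 and YTHDF3 (1.72 ± 0.51) with a wider error and was not called (adjusted p = 0.0602), with 2.66, 8.82 and 1.62 normalised CPM in the YTHDF1 RIP, where replicate 2 stood apart. Its value between YTHDF1 and YTHDF3 went from 1.08 to -0.118 without YTHDF1 RIP replicate 2.

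**Figure D4:**
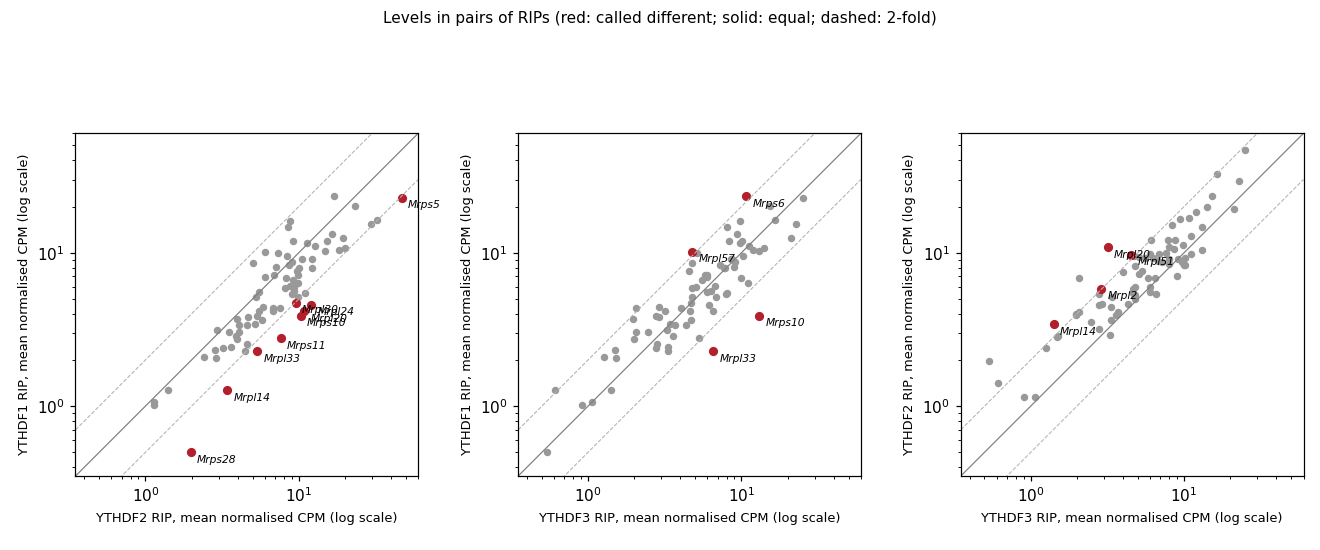
Mean normalised CPM over 3 libraries of each of the 78 members in one RIP (x axis, log scale) against another (y axis, log scale), with a solid line of equal level and dashed lines of a 2-fold difference. Red points are called different (9, 4 and 4 members); most points lie below the solid line for YTHDF1 against YTHDF2 and above it for YTHDF2 against YTHDF3.

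The Mrps18 paralogues, of which Mrps18c belongs to the conserved core of the small subunit, Mrps18b to the small subunit and Mrps18a to the large subunit, were depleted in all 3 RIPs. Their log2 fold changes with YTHDF1, YTHDF2 and YTHDF3 were -2.02, -1.27 and -1.83 for Mrps18a, -1.54, -1.13 and -1.38 for Mrps18b, and -2.45, -2.28 and -2.60 for Mrps18c. No pair of RIPs was called different for any of these 3 genes. For Mrps18c, 23.2% of the exonic length is shared with another annotated gene on the same strand. The same holds for 88.0% of Mrpl53, 37.0% of Mrps34 and 15.4% of Mrps24, and the counts of these members are uncertain to that extent.

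The members are short mRNAs. On the principal transcript of each gene, their median length was 1302 nucleotides against 3154 for protein-coding genes tested, their median coding length 585 against 1425 nucleotides, and their median 3′ UTR 327 against 1078 nucleotides. Every one of the 78 coding regions was shorter than the protein-coding median, and 63 of the 78 mRNAs were. They also held fewer exons, with a median of 5 against 9. Among the members, mRNA length and log2 fold change were related in the same direction in all 3 RIPs, with Spearman rho of 0.53, 0.32 and 0.40 for YTHDF1, YTHDF2 and YTHDF3 across 78 genes, and coding length with rho of 0.58, 0.59 and 0.58. Across the protein-coding genes tested the rho values with mRNA length were 0.61, 0.41 and 0.62. These are relations across genes that share the same 12 libraries, and genes are not independent replicates.

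Split by mRNA length, the 26 shortest members (418 to 1018 nucleotides) had median log2 fold changes of -2.13, -1.22 and -1.92, the 26 in the middle -1.19, -0.76 and -1.18, and the 26 longest (1962 to 7300 nucleotides) -1.08, -0.88 and -1.26. The shortest group was lowest in every RIP, and the other groups lay close together. Of the 26 longest members, 23, 19 and 23 were still depleted. Mrpl17, whose mRNA of 7300 nucleotides was the longest, had 22.9, 22.0 and 21.1 normalised CPM in Input against 12.6, 16.9 and 14.4 with YTHDF1, 7.97, 7.48 and 9.99 with YTHDF2 and 9.16, 7.59 and 7.31 with YTHDF3 (log2 fold changes -0.59, -1.37 and -1.46, all called). When the trend with mRNA length was removed from every library, an alternative added after seeing the data, the medians were -0.88, -0.64 and -0.995 and 37 members were depleted in the YTHDF2 RIP. The medians of all genes were then -0.08, -0.07 and -0.17. Relative to all genes the member medians were -0.799, -0.573 and -0.826, against -1.51, -1.05 and -1.42 in the fit reported. Under that alternative 1 member was enriched with YTHDF1 (Mrps6), 2 with YTHDF2 (Mrpl44 and Mrps15) and 1 with YTHDF3 (Mrpl33). The shares of all genes called there are not given. That trend used the principal mRNA, which for Mrpl33 has 478 nucleotides against 7326 bases of joined exons. Length moved with the results, and its part in them was not tested beyond these values.

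**Figure D5:**
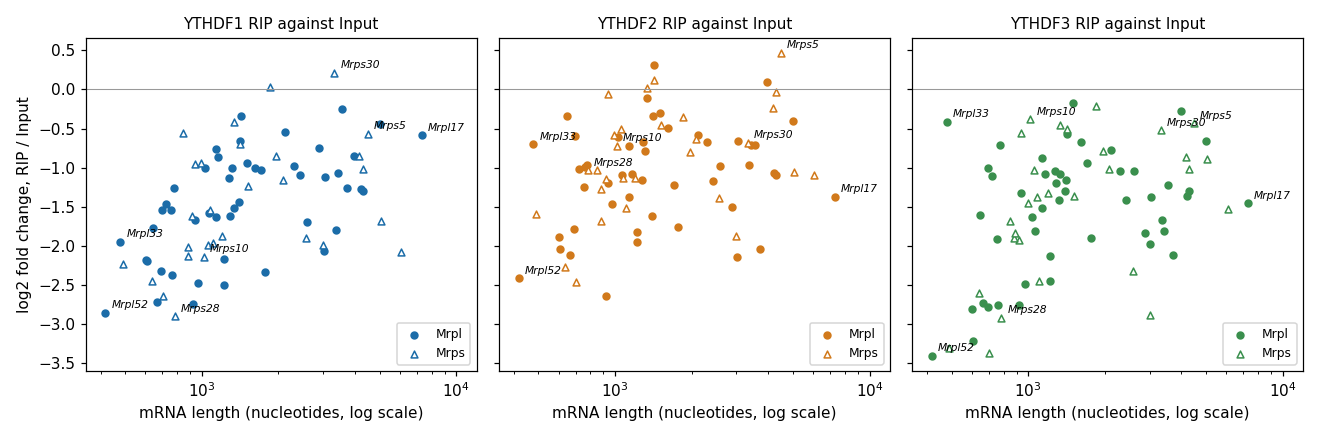
Log2 fold change against Input (y axis) by length of the principal mRNA (x axis, nucleotides, log scale) for the 78 members, with Mrpl genes as filled circles and Mrps genes as open triangles. The shortest mRNAs are lowest, and Spearman rho across members is 0.53, 0.32 and 0.40 for YTHDF1, YTHDF2 and YTHDF3.

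The 5-letter sequence GGACT, a common setting of m6A, was searched on the sense strand of the principal mRNAs. At least 1 copy was present in 80.8% of the members and in 92.0% of protein-coding genes tested, with medians of 1 against 3 copies per mRNA and of 1.0 against 1.04 copies per kilobase. No methylation was measured in these libraries, so a match is a description of sequence. Mrps28 and Mrps30, the lowest and the highest member in the YTHDF1 RIP, are shown. There were 6 matches in the 783 nucleotides of Mrps28, more per kilobase (7.66) than in any other member. Mrps30 had 1 match in 3319 nucleotides. This pair was picked with its matches known and does not stand for the members, whose number of matches had a rho of 0.22 with the YTHDF1 value. The rank of Mrps28 also rests on small counts. The match in Mrpl52, the lowest member with YTHDF3, and that in Mrps27, the member closest to Input, are shown beside those of Mrps28 and Mrps30. Each is written 5′ to 3′ as in the mRNA with 10 bases on either side, and capitals mark the motif.
Mrps28, chr3:8923885-8923909, minus strand, 5′ UTR: ttaaactaccGGACTagtaggctcg
Mrps28, chr3:8923754-8923778, minus strand, coding: tcccacgccgGGACTgctgggagcc
Mrps28, chr3:8923603-8923627, minus strand, coding: agcgacactcGGACTtgcagcggaa
Mrps28, chr3:8802285-8802309, minus strand, coding: agttctcttaGGACTccaagagatc
Mrps28, chr3:8802268-8802292, minus strand, coding: aagagatcagGGACTcaaaatcaag
Mrps28, chr3:8802230-8802254, minus strand, 3′ UTR: agcaagtaatGGACTgcgcttgctg
Mrps30, chr13:118382888-118382912, minus strand, coding: ctttttgcttGGACTggagcacaag
Mrpl52, chr14:54429684-54429708, plus strand, coding: aaacctaaagGGACTttactgagaa
Mrps27, chr13:99415364-99415388, plus strand, 3′ UTR: cccgcttccaGGACTcagcaccagt

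The 15 members without a match, among them Mrps10, Mrpl33, Mrpl18 and Mrpl42, had median log2 fold changes of -1.67, -1.16 and -1.32 with YTHDF1, YTHDF2 and YTHDF3. Only principal mRNAs were searched, and for Mrps10 and Mrpl33 these leave out most of the exonic sequence over which reads were counted. The 26 members with 1 match had medians of -1.62, -1.02 and -1.56, and the 37 with 2 or more -1.25, -0.98 and -1.36. The last group was also the longest, with a median mRNA of 2596 nucleotides against 940 and 959 in the others. Across members, the number of matches and the log2 fold change had rho values of 0.22, 0.21 and 0.12, and matches per kilobase -0.10, 0.08 and -0.12. Across the protein-coding genes tested, the rho values were higher for the number of matches, at 0.45, 0.37 and 0.48. Per kilobase they were 0.02, 0.10 and 0.05.

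Among other genes of mitochondrial translation, some were depleted and some enriched. Of 41 genes for further mitoribosomal proteins, translation factors, assembly factors and regulators of mitochondrial RNA, 17 were depleted and 5 enriched with YTHDF1, 9 depleted and 7 enriched with YTHDF2, and 12 depleted and 6 enriched with YTHDF3, with medians of -0.41, -0.03 and -0.08. The depleted shares were 41.5%, 22.0% and 29.3%, against 26.1%, 19.3% and 23.2% of all genes tested. The enriched shares were 12.2%, 17.1% and 14.6%, against 27.5%, 16.1% and 16.7% of all genes. For YTHDF2 and YTHDF3 both shares were thus near those of all genes, and for YTHDF1 the enriched share was below. The difference between these genes and the members was not tested. Their principal mRNAs had a median length of 2449 nucleotides. Aurkaip1 (-2.42, -1.51 and -2.58) and Chchd1 (-2.30, -2.32 and -2.44), small-subunit proteins that carry no Mrp symbol, were depleted in all 3 RIPs. Dap3, a GTP-binding small-subunit protein, and Ptcd3, another pentatricopeptide repeat protein of that subunit, were called in none. Lrpprc, which stabilises mitochondrial mRNAs, was enriched in all 3 RIPs (1.42, 0.69 and 0.80), while its partner Slirp was depleted in all 3 (-2.99, -1.86 and -1.94). Polrmt, the mitochondrial RNA polymerase, was enriched in all 3 (1.22, 0.80 and 0.93).

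The closest groups by function were depleted further. Of 82 cytosolic ribosomal protein genes tested, 82, 65 and 81 were depleted with YTHDF1, YTHDF2 and YTHDF3 and 0 enriched, with medians of -2.46, -2.00 and -3.40. The list of nuclear-encoded respiratory chain subunit genes was taken by symbol and also includes symbols that begin with Atp5, those of ATP synthase. Of its 78 genes tested, 71, 63 and 76 were depleted and 2, 3 and 1 enriched, with medians of -2.30, -1.69 and -2.82. The principal mRNAs of these groups had median lengths of 882 and 861 nucleotides. Between YTHDF2 and YTHDF3, 19 cytosolic (23.2%) and 28 respiratory chain genes (35.9%) were higher with YTHDF2. The 4 mitochondrial ribosomal protein genes (5.13%) were near the 3.97% of all genes. Differences between the lists were not tested.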

How the data were processed

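RNA was measured in 12 libraries from hippocampal neurons, grouped by the sample labels. Per the methods, the authors prepared stranded total-RNA libraries, handled unique molecular identifiers with UMI-tools 1.1.1, trimmed with cutadapt 3.4, aligned with STAR 2.7.7a to the mouse genome (mm10, named GRCm38 in the annotation) and removed duplicates. The deposited values are raw counts of featureCounts 2.0.1 on the exons of Ensembl release 97, with strand setting 2. The command in the file header lets overlapping genes share a read and counts each alignment of multi-mapped reads, so counts of overlapping genes and of genes with pseudogenes are not independent. Beside the counts there is a table for each protein with the DESeq2 mean counts, log2 fold changes and p-values of their own comparisons. Only names and biotypes of the YTHDF1 table were used.

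Genes with a mean of at least 10 counts after division by median-ratio size factors were tested (16820). Library sizes were scaled by TMM over these genes, and 1 quasi-likelihood model of 4 groups was fitted with edgeR 4.0.16 in R 4.3.3, with Benjamini-Hochberg adjustment over all genes tested. The SE is the log2 fold change divided by the square root of F. Normalised CPM are counts scaled to 1000000 per TMM-scaled library. The common biological coefficient of variation was 0.322. The script was tested on simulated data. Totals of 6020072 to 38909592 set the counting error, and for the lowest members it is large. An exact permutation test of 3 against 3 libraries cannot go below 0.1, so tests were made only across all genes.

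The members, lists and tests were chosen with earlier results of these data known. Named members were the 6 highest and 6 lowest against each Input, the 4 highest and 4 lowest in each pair of RIPs, the 4 highest and lowest Input levels, the 4 longest and shortest exonic lengths, the Mrps18 paralogues and members called in the minority direction. Mrpl2, Mrpl24, Mrpl30, Mrpl51 and Mrps15, and the genes of mitochondrial translation named from their list, were chosen after their values were seen. Features were read from the principal transcripts of the GENCODE M21 annotation of GRCm38.

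Replicate numbers were taken to pair the samples, since the methods state that the lysate of each replicate was split between its RIPs with a shared input. Deviations of same-numbered libraries from their group means correlated at 0.835, 0.539 and 0.812 between YTHDF3 RIP and Input, at 0.0895, -0.269 and -0.329 between YTHDF1 RIP and Input, and at 0.186, -0.326 and -0.318 between YTHDF2 RIP and Input. The highest values with Input across unlike numbers were 0.0118 for YTHDF3, 0.471 for YTHDF1 and 0.568 for YTHDF2. The last 2 were both between RIP replicate 2 and Input replicate 3. For the YTHDF1 and YTHDF2 RIPs the values thus do not show pairing with Input by number. Between RIPs, same-numbered libraries correlated at 0.0697, 0.553 and 0.361 for YTHDF1 with YTHDF2. The values were 0.106, -0.341 and -0.351 for YTHDF1 with YTHDF3, and 0.175, -0.322 and -0.355 for YTHDF2 with YTHDF3. Across unlike numbers the highest values were 0.144, 0.427 and 0.563 in these comparisons. Pairing by number is thus not shown between YTHDF3 and the other RIPs. Fits with the replicate block rest on the stated pairing. Alternatives were DESeq2 1.42.0, DESeq2 size factors, library size alone, TMM over protein-coding genes, a minimum mean of 50 or no filter, a block for replicate number, removal of the trend with exonic or mRNA length, each with and without the block, fits of 2 groups alone, and each library left out.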

Additional observations from a re-analysis of the deposited data

Results flagged for a closer look

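The RIPs differed by a direct test for 17 pairs of member and comparison, with a 2-fold difference and an adjusted p of 0.05 or less in edgeR. Lower with YTHDF1 than with YTHDF2 were Mrps28 (log2 fold change -1.87), Mrps11 (-1.48), Mrpl14 (-1.43), Mrps10 (-1.42), Mrpl24 (-1.4), Mrpl20 (-1.39), Mrpl33 (-1.25), Mrps5 (-1.03) and Mrpl30 (-1.01). Between YTHDF1 and YTHDF3, Mrps10 (-1.76) and Mrpl33 (-1.53) were lower with YTHDF1, and Mrps6 (1.13) and Mrpl57 (1.08) were higher. Higher with YTHDF2 than with YTHDF3 were Mrpl20 (1.76), Mrpl14 (1.26), Mrpl51 (1.1) and Mrpl2 (1.02). Mrps10, Mrps11 and Mrpl24 kept their call against YTHDF2 under all 19 alternatives, and Mrps10 also against YTHDF3. Groups of 3 libraries are too small for a check of single outlying libraries.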

How the results depend on the processing

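The depleted counts against Input stayed within 1.5 times of the values given, except in the YTHDF2 RIP with the mRNA length trend removed, where 37 members were depleted, and 34 with the replicate block as well. Of the members called depleted, 40 of 72, 26 of 56 and 44 of 69 with YTHDF1, YTHDF2 and YTHDF3 were called under every alternative, and 68, 40 and 64 in every fit without a library. Without single libraries 70 to 73, 41 to 50 and 64 to 67 members were depleted and 0 enriched. Shares of all genes are not given for the counts under alternatives in this paragraph, so they do not set the members apart. No member was called enriched in the fit reported, but 1 was with YTHDF1 and 1 with YTHDF3 when the mRNA length trend was removed, with or without the block. With YTHDF2, 2 were enriched under those settings, and 1 with DESeq2, with DESeq2 size factors, with library size alone, with a minimum mean of 50, with the exonic length trend removed with or without the block, and in 2 groups alone without the block.

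With library size alone the median of all genes moved to -0.375 for YTHDF1 and 0.378 for YTHDF3 against Input, and the member medians became -1.91 and -1.05. The member medians relative to all genes ranged from -1.89 to -0.799 for YTHDF1, from -1.14 to -0.573 for YTHDF2 and from -1.50 to -0.826 for YTHDF3 over all alternatives. With TMM over protein-coding genes the medians for YTHDF1 and YTHDF2 were -1.73 and -1.14, and without a filter that for YTHDF2 was -1.14. With the exonic length trend removed they were -1.15, -0.869 and -1.19 for YTHDF1, YTHDF2 and YTHDF3, and with the block as well -1.18, -0.861 and -1.18. With the mRNA length trend removed they were -0.88, -0.641 and -0.995, and with the block as well -0.904, -0.631 and -0.991.

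Between RIPs, library size alone moved the medians to -0.931 (YTHDF1 against YTHDF2), -0.715 (YTHDF1 against YTHDF3) and 0.212 (YTHDF2 against YTHDF3), with 30 members lower, 19 lower and 0 higher, and 1 higher. The medians of all genes moved as well, to -0.441, -0.542 and -0.188. Relative to all genes the member medians were -0.49, -0.173 and 0.40, against -0.479, -0.168 and 0.391 in the fit reported. Shares of all genes are not given for the counts in this paragraph. Without a filter the last median was 0.232. With the mRNA length trend removed the median of YTHDF1 against YTHDF2 was -0.159, and with the block -0.173. TMM over protein-coding genes gave 15 members lower with YTHDF1 than with YTHDF2. For YTHDF1 against YTHDF3, 0 were higher with TMM over protein-coding genes, without a filter, with a minimum of 50 and in 2 groups alone with or without the block, and 4 with either length trend removed, with or without the block. In 2 groups alone with the replicate block 1 was lower there, and 0 were higher with YTHDF2 than with YTHDF3. The block changed no other count by over 1.5 times. Without single libraries, the counts were 0 to 2 higher and 6 to 20 lower for YTHDF1 against YTHDF2, 0 to 4 higher and 2 to 5 lower for YTHDF1 against YTHDF3, and 0 to 3 higher for YTHDF2 against YTHDF3. For YTHDF1 against YTHDF2, 2 were higher without YTHDF1 RIP replicate 1, 20 lower without YTHDF1 RIP replicate 2 and 6 lower without YTHDF2 RIP replicate 2. For YTHDF1 against YTHDF3, 4 were higher without YTHDF1 RIP replicate 1 or YTHDF3 RIP replicate 1, 1 without YTHDF3 RIP replicate 2, and 0 higher and 5 lower without YTHDF1 RIP replicate 2. For YTHDF2 against YTHDF3, 2 were higher without YTHDF3 RIP replicate 1, 1 without YTHDF2 RIP replicate 2, and 0 without YTHDF3 RIP replicate 2 or replicate 3.

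Signs changed for single members near 0. In the YTHDF1 RIP Mrps27 went to -0.0703 in 2 groups with the block, -0.0795 without it, -0.00867 with DESeq2, -0.0067 with its size factors, -0.219 with TMM over protein-coding genes, -0.367 with library size alone, -0.0917 at a minimum of 50, -0.0226 without a filter and between -0.0974 and 0.131 without single libraries. Mrps30 went to -0.0389 with TMM over protein-coding genes, -0.211 with library size alone, -0.304 and, with the block, -0.324 without the exonic length trend, and -0.0475 and -0.0694 without the mRNA length trend. Without the exonic length trend Mrps23 became 0.192 (0.164 with the block) and Mrpl44 0.233 (0.223), and without the mRNA length trend 0.287 (0.259) and 0.286 (0.274). In the YTHDF2 RIP Mrps23 went to -0.0878 with TMM over protein-coding genes, -0.0775 without a filter and -0.129 to 0.144 without single libraries. There Mrpl3 went to -0.0131, -0.00586, -0.254 (-0.248 with the block) and -0.216 (-0.209) with TMM over protein-coding genes, no filter and the 2 length trends removed. Mrps9 went to -0.175 (-0.176) without the exonic length trend, and Mrps26 to 0.0365 with library size alone and -0.0701 to 0.0146 without single libraries. In the YTHDF3 RIP, with library size alone, Mrps27 was 0.11, Mrpl3 0.0451 and Mrpl37 0.149. Mrps27 was 0.0626 (0.059) without the exonic length trend, and Mrpl33 1.35 (1.36), Mrps10 0.443 (0.443) and Mrpl37 0.189 (0.192) without the mRNA length trend. Between YTHDF1 and YTHDF3 Mrps21 ranged from -0.118 to 1.33 without single libraries. The cause of these changes was not tested. Depth limits Mrps28 most, with 1 count in YTHDF1 RIP replicate 1.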
